A study of Mus musculus with 18 samples.

Results

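The liver was compared between mice on a high-salt diet (the HSD group) and mice on a control diet (the CON group). The comparison holds 6 of the 18 libraries of the series, 3 per group, each from 1 mouse, and 10317 of the 21899 listed genes, whose FPKM averaged 0.5 or more across these 6 libraries. All mice were wild-type male C57BL/6 mice, 18 weeks old. The CON mice (libraries CON14L, CON16L and CON72L) ate chow and drank tap water, and the HSD mice (HS2L, HS4L and HS5L) received salt-enriched chow together with saline as their drinking water for 12 weeks. FPKM are the fragments of a gene scaled by the length of its exons and by all fragments of the library, so levels can be set side by side between genes.

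The liver makes fatty acids, triglycerides and cholesterol, turns amino nitrogen into urea, makes bile acids and secretes most of the proteins of plasma. Fatty acid and cholesterol synthesis are run by enzyme sets that transcription factors of the SREBP family switch on together. Hepatocytes near the portal vein carry most of the urea cycle and amino acid breakdown, while those near the central vein carry most of the cytochrome P450 enzymes. Kupffer cells are the resident macrophages of the liver, and interferon-stimulated genes are the antiviral set that type I interferon turns on.

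The labelled tissue was checked first. Of 12 hepatocyte markers, 11 were in the file and 11 were above 0 in each of the 6 libraries, with a summed FPKM between 19460 and 87762. Between 7628071 and 11627773 fragments per library fell on listed genes. The share of these fragments on the 13 mitochondrially encoded (mt-) genes differed between libraries of the same diet. It was 60.82% in CON14L (Wilson interval at 95%, 60.78 to 60.85), 25.71% in CON16L (25.68 to 25.73) and 37.84% in CON72L (37.81 to 37.88). In the HSD group it was 16.26% in HS2L (16.24 to 16.28), 15.38% in HS4L (15.36 to 15.41) and 44.39% in HS5L (44.36 to 44.42). The groups overlapped, with a mean of 41.5% ± 17.8 (SD, n = 3) in CON and 25.3% ± 16.5 (SD, n = 3) in HSD. The intervals cover counting error only. In the other tissues this share lay between 3.52% and 16.5%. CON16L also held skeletal muscle RNA. The summed FPKM of 34 muscle markers was 7210 in CON16L and between 11.6 and 30.2 in the other 5 liver libraries. Set against the mean of the 6 muscle libraries, this sum gave a muscle share of 7.34% in CON16L and of 0.0118% to 0.0308% in the others. By the median over markers the share in CON16L was 6.27%. A gene's muscle part of CON16L, given below, is the 7.34% share applied to its mean in the muscle libraries. It is a rough estimate, since for the markers *Pvalb* and *Mb* it gave 300% and 13.9%.

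**Figure D1:**
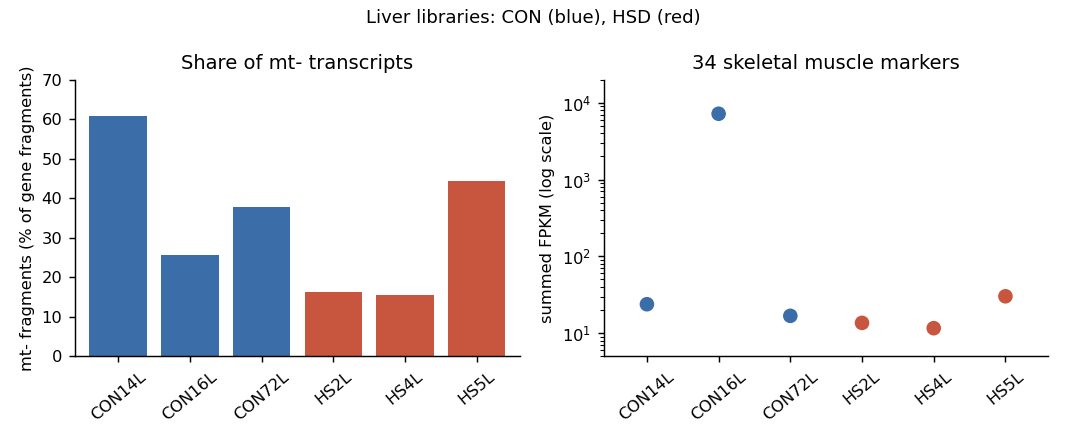
Left, mt- fragments as a percentage of all gene fragments in each liver library (bars, CON blue, HSD red). Right, summed FPKM of the 34 skeletal muscle markers on a log scale. CON14L has the highest mt- share (60.82%) and HS4L the lowest (15.38%), and CON16L stands apart with 7210 FPKM on muscle markers.

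No gene passed the threshold for a differentially expressed gene (DEG), which was a Benjamini-Hochberg adjusted p under 0.05 in limma together with a log2 difference of 1 or more in either direction (0 of 10317 genes, 0.0%). The smallest adjusted p was 0.0918, for *Acacb*. At an unadjusted p under 0.05 there were 592 genes (5.74%), 390 higher in HSD (3.78%) and 202 lower (1.96%). With limma's voom on the recovered fragments the count of DEGs was also 0, with 542 genes at an unadjusted p under 0.05. Gene directions are therefore described by whether the 3 libraries of one group all lay above the 3 of the other. That held for 1247 genes (12.1%), of which 889 were higher in HSD (8.62%) and 358 lower (3.47%). For 1 gene with 3 against 3 libraries, such separation has p = 0.1 by an exact permutation test. A share near that would separate without a diet effect, so separation alone does not tell a diet effect from chance. When mt- genes were left out and FPKM were rescaled to the remaining fragments, 383 genes (3.71%) still separated the groups in the same direction, 159 higher (1.54%) and 224 lower (2.17%). Over all genes, leaving out mt- genes moved the median difference from 0.13 to −0.20 on the log2 scale, so a small difference near 0 can take the other sign under that scaling.

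**Figure D2:**
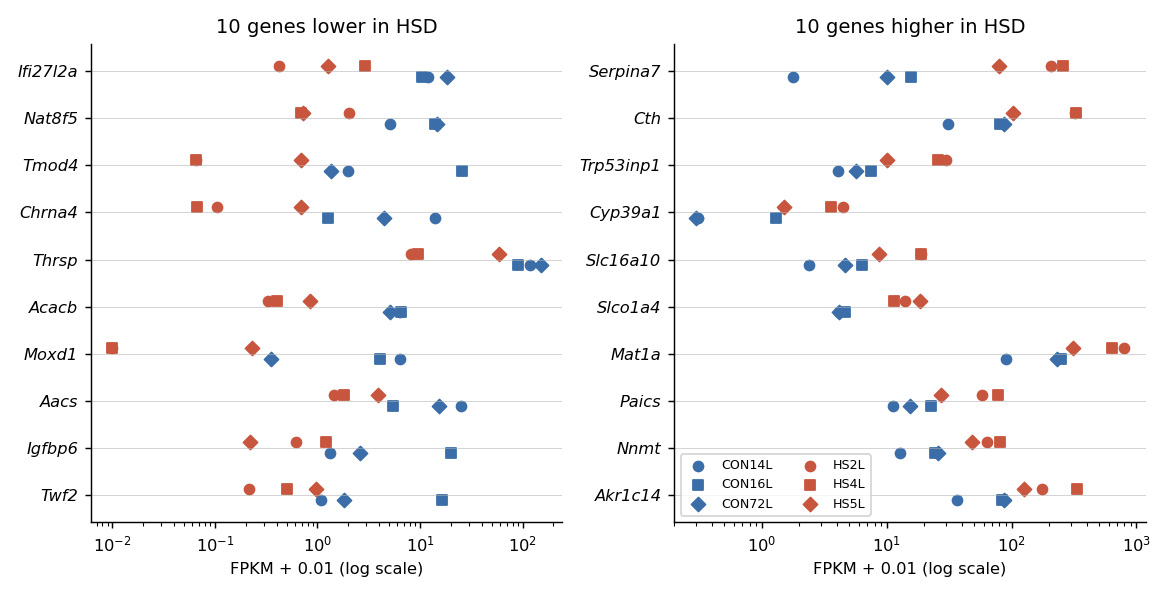
FPKM plus 0.01 on a log scale for the 10 genes with the largest negative and the 10 with the largest positive log2 fold change among genes whose groups do not overlap in either scaling. Each marker is 1 library (CON blue, HSD red). The groups do not overlap for any of these genes, which is how they were chosen, and CON16L stands far above the other CON libraries for *Tmod4*, *Igfbp6* and *Twf2*.

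The fatty acid synthesis genes were lower in HSD in most cases. Of 14 genes of fatty acid synthesis and desaturation, 11 were lower and 3 higher, with a median log2 fold change of −0.63, against 0.13 over all genes, of which 37.3% were lower and 62.7% higher. The groups did not overlap for 6, all lower in HSD (3.47% of all genes were apart in that direction). With mt- genes left out, 4 of the 6 were still apart (2.17% of all genes). In limma 6, all lower, had an unadjusted p under 0.05 (1.96% of all genes). *Acacb* (ENSMUSG00000042010, chromosome 5, 114146535 to 114250761), the acetyl-CoA carboxylase at the outer mitochondrial membrane whose product blocks entry of fatty acids into mitochondria, had 6.38, 6.49 and 5.1 FPKM in CON14L, CON16L and CON72L and 0.319, 0.39 and 0.838 FPKM in HS2L, HS4L and HS5L. Each CON library was thus several times above each HSD library. The means were 5.99 ± 0.776 (SD, n = 3) and 0.516 ± 0.281 (SD, n = 3) on 32 to 727 fragments, and the log2 fold change was −2.70 (SE, the standard error, 0.25 and, by limma, adjusted p = 0.0918). Muscle also expresses *Acacb*, and the muscle share would account for 37.8% of its FPKM in CON16L. Without CON16L the log2 fold change was −2.65.

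*Thrsp*, a nuclear protein that promotes lipogenic gene expression, had 117, 91.2 and 151 FPKM in the CON libraries and 8.15, 9.55 and 58.6 in the HSD libraries. The groups did not overlap, but HS5L lay closer to CON than the other HSD libraries did, and the log2 fold change of −2.77 (−2.02 beside the mt- share, on which its slope was called) had an SE of 0.73 (adjusted p = 0.764 from limma). *Fasn*, the enzyme that builds palmitate, showed the same order of HSD libraries, with 35.4, 35.7 and 60.8 FPKM in CON and 8.53, 10.6 and 28.7 FPKM in HSD. Its log2 fold change was −1.59 (SE 0.50). Once mt- genes were left out, the groups for *Fasn* overlapped. *Acly*, which makes cytosolic acetyl-CoA from citrate, had 17.9, 15.3 and 34.2 FPKM in CON and 8.62, 13.8 and 11.2 in HSD. *Acaca*, the cytosolic acetyl-CoA carboxylase, had 3.69, 3.5 and 4.25 FPKM in CON and 1.54, 2.17 and 4.17 in HSD. HS5L lay inside the CON range for *Acaca*, so this isoform did not separate the groups while *Acacb* did. With the mt- share fitted beside diet, all 14 genes of the list had a negative diet coefficient, with a median of −0.86, while 55.7% of all genes had a positive one.

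In glyceride assembly the list as a whole was split, with 5 of 10 genes higher and a median of 0.14. *Lpin1* and *Lpin3*, both phosphatidate phosphatases of triglyceride synthesis, were the 2 members whose groups did not overlap. Both were lower in HSD, and 3.47% of all genes were apart in that direction. *Lpin1* had 11.7, 7.86 and 7.68 FPKM in CON and 3.51, 1.78 and 2.34 in HSD, a log2 fold change of −1.67 (SE 0.30). The muscle share would account for 29.7% of its value in CON16L, and without that library the fold change was −1.76. *Lpin3* had 2.45, 1.58 and 1.83 FPKM in CON and 0.909, 1.15 and 1.05 in HSD. Among 8 lipogenic regulators, 1 was separated in each direction, where all genes gave 8.62% higher and 3.47% lower. *Nr1h3*, the liver X receptor alpha, had 27.3, 18.5 and 22.2 FPKM in CON and 28.5, 27.6 and 29.8 in HSD, and *Insig1*, which retains SREBP in the endoplasmic reticulum, had 87.4, 97.5 and 97 against 57.6, 63.8 and 77.2. Neither stayed separated with mt- genes left out. *Tsku*, a secreted liver protein, had 40, 24.4 and 46.2 FPKM in CON against 22.9, 11.7 and 36.6 in HSD, with overlapping groups and a called slope.

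Of 24 tested genes of cholesterol synthesis and LDL uptake, 16 were lower and 8 higher in HSD, with a median log2 fold change of −0.39. The groups did not overlap for 9 lower genes and 1 higher gene, where all genes gave 3.47% and 8.62%. With mt- genes left out, 8 of the lower genes still separated the groups, where all genes gave 2.17%. *Mvd* (ENSMUSG00000006517, chromosome 8, 122433601 to 122443422), mevalonate diphosphate decarboxylase, had 9.66, 9.11 and 8.82 FPKM in the CON libraries and 3.3, 3.63 and 2.39 in the HSD libraries. *Dhcr7* (ENSMUSG00000058454, chromosome 7, 143823145 to 143848410), the last enzyme on the way to cholesterol in one branch of the pathway, had 5.88, 7.2 and 7.91 FPKM in CON and 2.29, 1.95 and 2.67 in HSD. Both genes were tight within each group, and HS5L was at the level of the other HSD libraries. Their log2 fold changes were −1.44 (SE 0.23) and −1.42 (SE 0.22), with an adjusted p of 0.55 for each from limma. Neither had a called slope on the mt- share, and beside that share the diet coefficients were −1.54 and −1.42. *Aacs*, which activates acetoacetate for lipid synthesis in the cytosol, spread more widely, with 25.3, 5.44 and 15.4 FPKM in CON and 1.44, 1.8 and 3.89 in HSD. Its log2 fold change was −2.32 (SE 0.57), its slope on the mt- share was called, and beside that share the diet coefficient was −1.56.

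Promoters of cholesterol genes are known to carry the CCAAT box, which the factor NF-Y binds next to SREBP. In RefSeq promoter windows (250 bases before to 50 after a start site, GRCm38.p6), the letters CCAAT occurred on either strand for 15 of the 17 cholesterol genes with a window (88.2%) and for 42.9% of the 8301 tested genes with one. The share was 66.7% of 12 fatty acid synthesis genes. The windows of the 2 cholesterol genes with the smallest spread are shown, 5′ to 3′ on the gene's strand, with CCAAT and its reverse complement ATTGG in capitals. The *Mvd* window is chr8:122443373-122443672 on the minus strand and the *Dhcr7* window, 1 of 3 listed for that gene, is chr7:143829964-143830263 on the plus strand.
Mvd: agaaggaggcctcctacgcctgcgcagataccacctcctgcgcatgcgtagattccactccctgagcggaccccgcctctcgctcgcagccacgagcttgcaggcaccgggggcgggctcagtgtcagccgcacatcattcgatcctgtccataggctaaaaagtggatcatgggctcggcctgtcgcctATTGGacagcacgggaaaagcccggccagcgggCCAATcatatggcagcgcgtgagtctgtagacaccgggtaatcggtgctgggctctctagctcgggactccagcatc
Dhcr7: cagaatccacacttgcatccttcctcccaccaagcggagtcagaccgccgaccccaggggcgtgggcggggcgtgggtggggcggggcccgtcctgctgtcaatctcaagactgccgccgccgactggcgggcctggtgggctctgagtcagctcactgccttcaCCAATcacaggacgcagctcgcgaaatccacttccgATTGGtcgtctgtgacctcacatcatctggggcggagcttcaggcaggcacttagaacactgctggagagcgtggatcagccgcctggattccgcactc
The matches start 60 and 27 bases upstream of the start site in *Mvd* and 85 and 49 bases upstream in *Dhcr7*. A match describes the letters and is not evidence of binding.

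**Figure D3:**
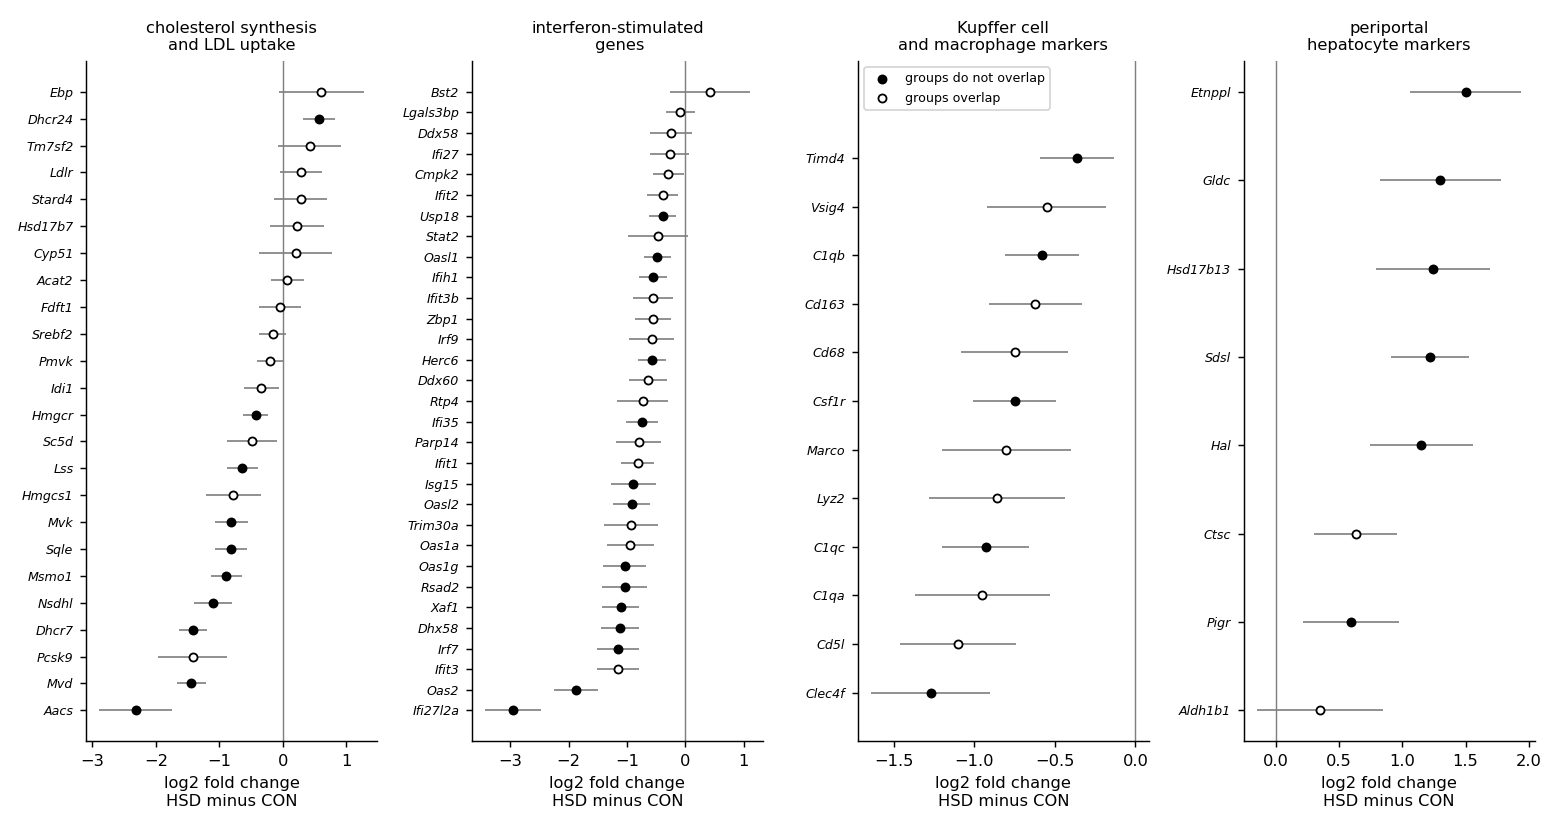
Log2 fold change (HSD minus CON) with its SE for the tested genes of 4 lists (1 interferon-stimulated gene is not shown). Filled points are genes whose groups do not overlap. Most interferon-stimulated genes and all 12 Kupffer cell and macrophage markers lie left of 0, while all 8 periportal markers lie right of it.

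Interferon-stimulated genes were lower in the HSD liver. Of 32 tested, 30 were lower and 2 higher, with a median log2 fold change of −0.68. The groups did not overlap for 14, all lower in HSD (3.47% of all genes). In limma 12 genes, all lower, had an unadjusted p under 0.05 (1.96% of all genes). With mt- genes left out, 7 of the 14 were still apart (2.17% of all genes). Over all genes, 224 of the 358 apart in that direction were still apart. *Ifi27l2a* (ENSMUSG00000079017, chromosome 12, 103442167 to 103443680), a small interferon-induced membrane protein, had 11.9, 10.4 and 18.2 FPKM in CON and 0.415, 2.91 and 1.26 in HSD. It rests on 2 to 77 fragments per library, and its log2 fold change was −2.95 (SE 0.48 and, by limma, adjusted p = 0.55). *Oas2* (ENSMUSG00000032690, chromosome 5, 120730333 to 120749853), which makes the second messenger of RNase L, had 5.54, 1.87 and 2.9 FPKM in CON and 0.345, 0.368 and 0.867 in HSD, a log2 fold change of −1.87 (SE 0.38). *Dhx58*, a regulator of the RIG-I sensor, had 4.05, 1.58 and 2.44 FPKM against 0.675, 0.913 and 1.14. In all 3 genes the groups were fully apart. Levels of the list also moved with the mt- share. The slope on it (described further on) was called for 17 of the 32 genes, 16 of them rising with the share. Over all genes the slope was called for 32.0%, and 7.68% had a called rising slope. Beside the mt- share, the median diet coefficient of the list was −0.42 with 30 of 32 genes negative. Without CON16L, the groups did not overlap for 24 lower genes and the median was −0.88. Over all genes without that library, 5.9% were apart in the lower direction and 19.8% in the higher one, and 65.7% were higher. Macrophage markers, were lower in the same HSD libraries, and their part in this result was not tested.

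Interferon-inducible GTPases, which attack the membranes of intracellular microbes, gave 11 of 12 genes lower, a median of −0.48 and 3 separated genes, all lower (3.47% of all genes). These 3 were also apart with mt- genes left out (2.17% of all genes). *Gbp3* had 3.57, 2 and 2.54 FPKM in CON and 0.411, 1.27 and 1.04 in HSD. *Gbp9* had 1.98, 1.66 and 1.48 FPKM against 0.649, 0.708 and 0.746, and the muscle share would account for 20.7% of its value in CON16L. *Gbp7* had 2.08, 2.67 and 1.58 FPKM against 0.889, 1.61 and 0.583, with HS4L level with CON72L. In the antigen presentation list of 14 MHC class I and immunoproteasome genes, 8 were lower and the median was −0.13. Its subunit *Psmb9* was the single separated gene (7.14% of the list, against 12.1% over all genes). *Psmb9* had 1.83, 3.41 and 2.48 FPKM in CON and 0.97, 1.24 and 1.31 in HSD.

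The interferon-stimulated response element, a promoter motif of this gene set, was searched as GAAA followed by 2 bases of any kind and GAAA, on both strands. It occurred in a promoter window of 13 of the 23 interferon-stimulated genes that have one (56.5%) and of 7 of 8 GTPases (87.5%), against 3.66% of the 8301 tested genes with a window. The *Gbp3* window (chr3:142559794-142560093, plus strand, 1 of 2 listed) is shown because it is the window of the GTPase with the largest difference. Its 2 overlapping matches, in capitals, are on the opposite strand and start 45 and 39 bases upstream of the start site.
Gbp3: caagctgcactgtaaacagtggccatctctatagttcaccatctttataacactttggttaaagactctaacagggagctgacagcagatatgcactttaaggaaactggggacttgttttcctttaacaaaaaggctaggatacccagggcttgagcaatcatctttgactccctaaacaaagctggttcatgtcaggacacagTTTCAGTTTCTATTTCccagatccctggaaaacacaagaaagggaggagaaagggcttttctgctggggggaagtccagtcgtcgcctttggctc

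Markers of Kupffer cells and other macrophages were lower in HSD for all 12 genes tested, with a median log2 fold change of −0.77 and a range from −1.27 to −0.36. The groups did not overlap for 5 of them, all lower (41.7%, against 3.47% of all genes in that direction). In limma 5, all lower, had an unadjusted p under 0.05 (1.96% of all genes). The summed FPKM of the list was 86.6, 84.4 and 78.9 in the CON libraries and 31.5, 49.9 and 44.4 in the HSD libraries. The sums thus separated the groups, and CON16L was level with the other CON libraries. *Clec4f*, a lectin found on Kupffer cells, had 28.6, 13.5 and 18 FPKM in CON and 5.55, 8.62 and 9.33 in HSD, a log2 fold change of −1.27 (SE 0.37), or −0.90 beside the mt- share, on which its slope was called. *C1qc*, a chain of complement C1q, had 5.3, 5.34 and 4.59 FPKM in CON and 1.84, 3.64 and 2.06 in HSD. *Cd5l*, a secreted macrophage protein, had 9.4, 5.74 and 9.93 FPKM against 2.97, 2.51 and 5.8, with HS5L just above CON16L. In bulk tissue, fewer macrophages and less RNA per macrophage cannot be told apart. Beside the mt- share the median diet coefficient was −0.68. Without CON16L the median was −0.75 with 6 genes separated, all lower (5.9% of all genes).

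Among other cell types, endothelial markers had 6 of 9 genes lower and stellate cell and fibroblast markers 5 of 10, with 0 separated genes in each list. *Cdh5* and *Pecam1*, endothelial adhesion proteins, were highest in CON16L, with 8.57 and 4.9 FPKM against at most 1.98 and 1.56 in the other 5 libraries. *Col3a1*, *Col1a2* and *Col1a1*, fibrillar collagen chains, had 7.08, 3.13 and 3.26 FPKM in CON16L. Cholangiocyte markers had 4 of 5 genes higher, with 0 separated. *Spp1* had 19.3, 35.4 and 45.2 FPKM in CON and 85.7, 43.8 and 38.9 in HSD. Of the lymphocyte and neutrophil lists 3 genes each passed the filter, and 1 in each list separated the groups, where 12.1% of all genes did. In the neutrophil list it was *Csf3r*, a cytokine receptor, with 1.53, 1.33 and 1.27 FPKM in CON and 0.399, 0.667 and 1.2 in HSD, though not apart with mt- genes left out. Red blood cell markers were lower for all 5 genes with a median of −1.85, but their groups overlapped. *Hbb-bs* had 210, 3038 and 401 FPKM in CON and 119, 113 and 327 in HSD, and the list median without CON16L was −0.82. Of 12 cell cycle genes 2 passed the filter. *Rrm2*, the small subunit of ribonucleotide reductase, had 1.04, 1.24 and 0.789 FPKM in CON and 0.519, 0.487 and 0.38 in HSD.

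Periportal genes were the list with the largest share of separated genes among the 8 or more tested. All 8 periportal hepatocyte markers were higher in HSD, with a median log2 fold change of 1.19, and the groups did not overlap for 6 (8.62% of all genes did so in this direction). With mt- genes left out, all 8 were still higher, with a median of 0.83 and 5 separated genes (1.54% of all genes were higher and apart in both scalings). *Etnppl*, which breaks down phosphoethanolamine, had 5.57, 9.36 and 16.5 FPKM in CON and 24.5, 39.3 and 22.8 in HSD, a log2 fold change of 1.50 (SE 0.44). *Sdsl*, a serine dehydratase-like enzyme, had 4.47, 4.77 and 6.21 FPKM in CON and 16.1, 14.2 and 8.6 in HSD. *Hal*, which starts histidine breakdown, had 15.5, 35.9 and 35.8 FPKM in CON and 62.2, 59.7 and 61.4 in HSD. The HSD libraries were almost level for *Hal*, although their mt- shares differed. Pericentral markers had 6 of 8 genes higher, a median of 0.28 and 1 separated gene (12.5%, against 12.1% over all genes). *Tbx3*, a pericentral transcription factor, had 4.77, 4.43 and 4.01 FPKM against 5.16, 5.05 and 5.12, and was not separated with mt- genes left out.

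The urea cycle genes were all higher in HSD as well (8 of 8, median 0.97, range 0.48 to 1.05). Of them 5 separated the groups (8.62% of all genes did so in this direction), 3 also with mt- genes left out (1.54% of all genes). *Gls2*, liver glutaminase, had 64.1, 68.9 and 76.8 FPKM in CON and 140, 136 and 137 in HSD, and its groups overlapped once mt- genes were left out. *Slc25a15*, the mitochondrial ornithine transporter, had 11.6, 14.8 and 17.5 FPKM against 33.1, 43.9 and 19.1. *Nags*, which makes the activator of the first urea cycle enzyme, had 6.51, 11.5 and 12.4 FPKM against 23.9, 21.5 and 14.4. The log2 fold changes of the 3 genes were 0.98, 1.05 and 0.96, with SEs of 0.33, 0.38 and 0.36. The slope on the mt- share was called for 5 of the 8 genes, all falling with the share, where 24.3% of all genes had a called falling slope. Beside the share the median diet coefficient was 0.61 with 7 of 8 positive.

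In glucose metabolism, 2 of 14 genes were separated and higher and 1 was separated and lower (21.4%, against 12.1% over all genes). *Pck1* and *Pklr*, enzymes of opposite directions, were among them. *Pck1*, the enzyme that starts gluconeogenesis from oxaloacetate, had 840, 1079 and 879 FPKM in CON and 1844, 2201 and 1981 in HSD, a log2 fold change of 1.11 (SE 0.41). *Pklr*, liver pyruvate kinase, had 18, 11.5 and 23.8 FPKM in CON and 5.46, 7.74 and 6.36 in HSD, a log2 fold change of −1.33 (SE 0.33). The adjusted p from limma was 0.764 for each. The list of 14 had 8 genes higher and a median of 0.22, so it did not move one way. Neither gene had a called slope on the mt- share.

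The largest positive difference was that of *Serpina7* (ENSMUSG00000031271, chromosome X, 139079257 to 139085236), thyroxine-binding globulin. It had 1.77, 15.7 and 10 FPKM in CON and 209, 257 and 79.8 in HSD, a log2 fold change of 4.49 (SE 0.79 and, by limma, adjusted p = 0.677). Even the lowest HSD library was several times above the highest CON library. *Serpina7* also fell with the mt- share by 1.21 on the log2 scale per 10 percentage points (adjusted p = 0.0286 from limma), and beside that share its diet coefficient was 3.37. *Slc16a10*, a carrier of aromatic amino acids and thyroid hormones, had 2.37, 6.31 and 4.59 FPKM against 18.9, 18.9 and 8.67. The other members of the thyroid hormone list did not separate the groups. *Cth*, cystathionine gamma-lyase, had 31.1, 80.4 and 87.2 FPKM in CON and 322, 328 and 102 in HSD. *Mat1a*, which makes S-adenosylmethionine in liver, had 90.5, 250 and 230 FPKM against 799, 634 and 311. *Nnmt*, which consumes S-adenosylmethionine to methylate nicotinamide, had 12.9, 24.3 and 26 FPKM against 63.8, 81 and 48.6. For *Cth* and *Mat1a*, HS5L lay closer to CON than the other HSD libraries did.

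*Slco1a4*, an organic anion transporter, differed from these in being level within CON, with 4.13, 4.6 and 4.12 FPKM, against 14, 11.5 and 18.5 in HSD. Its log2 fold change was 1.64 (SE 0.26 and, by limma, adjusted p = 0.55), HS5L was the highest library, and the slope on the mt- share was not called. *Trp53inp1*, a stress-induced p53 cofactor, had 4.05, 7.54 and 5.64 FPKM against 30, 25.6 and 9.97. *Paics*, a purine synthesis enzyme, had 11.2, 22.7 and 15.5 FPKM against 58.5, 78.3 and 27. *Akr1c14*, a hydroxysteroid dehydrogenase, had 36.7, 83.8 and 87.7 FPKM against 174, 337 and 127. The groups did not overlap for any of the 10 genes that lead the positive direction, by the rule that chose them. Of the 10, 9 had a falling slope on the mt- share at an adjusted p under 0.05 from limma, the exception being *Slco1a4*. Over all genes 24.3% had such a slope.

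Bile acid genes had 11 of 15 higher, where 62.7% of all genes were, with a median of 0.42. Of the 15, 4 were separated, all higher (8.62% of all genes), and 3 of these with mt- genes left out as well (1.54% of all genes). *Cyp39a1*, an oxysterol hydroxylase, had 0.301, 1.3 and 0.286 FPKM in CON and 4.43, 3.57 and 1.49 in HSD, on as few as 7 fragments. The muscle share would account for 16.2% of its value in CON16L. *Slco1b2*, a hepatocyte uptake transporter of bile acids, had 79.9, 85.4 and 94.6 FPKM against 197, 230 and 134. *Baat*, which conjugates bile acids, had 61.9, 106 and 114 FPKM against 181, 156 and 122, with a called slope. PPARalpha targets had 13 of 18 higher and a median of 0.51, and *Ppara* itself had 2.26, 3.48 and 2.88 FPKM in CON and 6.1, 4.24 and 4.03 in HSD. *Slc22a5*, the carnitine transporter, had 6.7, 5.54 and 4.66 FPKM against 9.37, 9 and 10.4. *Ppara* and *Slc22a5* were no longer separated once mt- genes were left out. *Cpt1a*, the gate for fatty acid entry into mitochondria that malonyl-CoA inhibits, had 12.5, 14.7 and 11.7 FPKM in CON and 28.8, 29.2 and 17.8 in HSD, and was the 1 separated gene of 22 in fatty acid oxidation and ketogenesis.

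Among the other genes lower in HSD, the rule on separated genes named *Nat8f5*, *Chrna4*, *Moxd1*, *Tmod4*, *Igfbp6* and *Twf2*. *Nat8f5*, an acetyltransferase of the Nat8 family, had 5.05, 13.9 and 14.7 FPKM in CON and 2.04, 0.684 and 0.712 in HSD, a log2 fold change of −2.79 (SE 0.48 and, by limma, adjusted p = 0.64). The Nat8 family holds close copies, so its reads can be shared with them. *Chrna4*, an acetylcholine receptor subunit, had 14, 1.25 and 4.48 FPKM against 0.0955, 0.0575 and 0.676, with a called slope. *Moxd1*, a copper monooxygenase-like protein, had 6.31, 4.03 and 0.342 FPKM against 0, 0 and 0.219. For *Tmod4*, a tropomodulin of skeletal muscle that was not on the marker list, the muscle share would account for 86.4% of the 25.4 FPKM in CON16L. It had 1.99 and 1.34 FPKM in the other CON libraries and 0.0559, 0.0561 and 0.681 in HSD. *Igfbp6* and *Twf2* had 20 and 16.5 FPKM in CON16L and at most 2.56 and 1.79 in the other CON libraries. Their log2 fold changes went from −2.13 and −1.96 to −1.09 and −0.91 without CON16L.

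The share of mt- transcripts was then fitted in place of diet. With this share as the only term, limma called a slope for 3298 of 10317 genes (32.0%) at an adjusted p under 0.05, 2506 falling (24.3%) and 792 rising (7.68%). Because FPKM divide by all fragments, a library with more mt- fragments has lower FPKM elsewhere. With mt- genes left out and FPKM rescaled, the count was 4617. Genes with a falling slope had a median exon length of 3082 bases and those with a rising slope 5171 bases, against 4238 over all genes. The steepest falling slopes by moderated t were those of *Spr*, *Mpc2*, *Prdx1*, *Ndfip1* and *Tmem59*. *Prdx1*, a peroxiredoxin, had 12.8 FPKM in CON14L, 29.3 in HS5L, 53 in CON72L, 93.7 in CON16L, 172 in HS2L and 182 in HS4L. This is the order of the mt- share from highest to lowest, and it runs across both diets. Its slope was −0.84 per 10 percentage points (adjusted p = 0.00117 from limma). The diet log2 fold change of *Prdx1* was 1.27 (SE 0.94), and beside the mt- share it was −0.11. *Spr*, a reductase of tetrahydrobiopterin synthesis, and *Mpc2*, a subunit of the mitochondrial pyruvate carrier, went from 1.25 and 1.22 to −0.10 and −0.19 in the same way. *Ndfip1*, an adaptor of NEDD4 ubiquitin ligases, went from 1.07 to −0.04, and *Tmem59* from 1.32 to 0.01.

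The steepest rising slopes belonged to *Albfm1*, *Msantd2*, *Zfp950*, *Zfp612* and *Thumpd2*, 2 of which are zinc finger genes. *Albfm1* had 40.6, 16.6 and 23.7 FPKM in CON and 10.2, 9.47 and 27.1 in HSD. Its slope was 0.45 per 10 percentage points (adjusted p = 0.00159 from limma), and its diet log2 fold change went from −0.84 to −0.16 beside the share. For *Msantd2*, *Zfp612* and *Thumpd2* the diet coefficient beside the share was 0.01, 0.04 and 0.15, from −0.78, −0.65 and −0.58. *Zfp950* went from −0.88 to −0.23. *Kcp*, a secreted modulator of BMP signalling, had 6.19, 2.41 and 3.52 FPKM in CON and 1.71, 1.61 and 4.81 in HSD, with a slope of 0.38. *Manf*, a stress-induced factor of the endoplasmic reticulum, had 6.21, 25.9 and 16.8 FPKM against 36.3, 35.3 and 6.31, and *Igfbp2*, an IGF-binding protein, had 25.9, 208 and 113 against 547, 424 and 122. All 3 had overlapping groups and a called slope, and beside the share their diet coefficients were 0.08, −0.60 and 0.58.

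**Figure D4:**
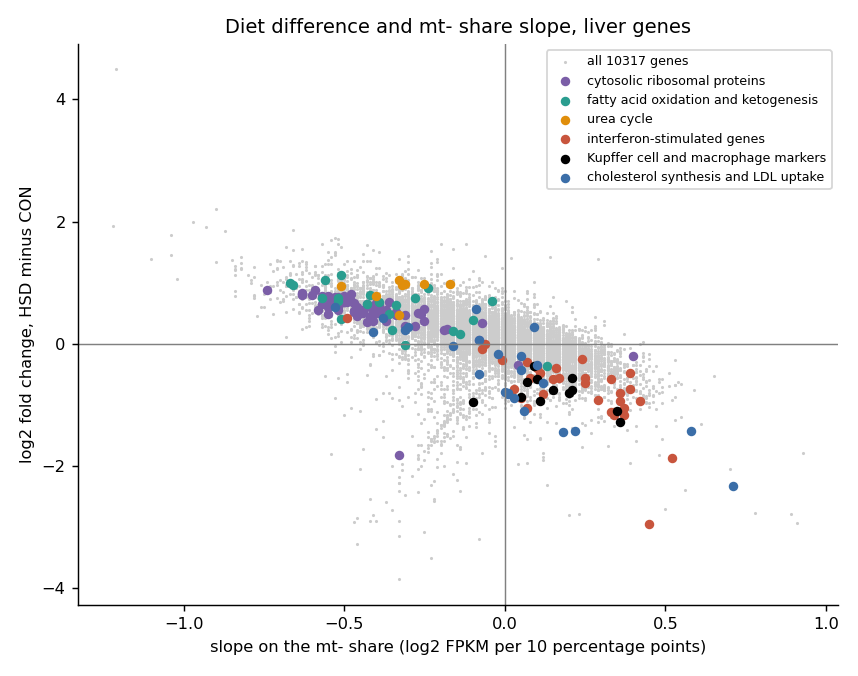
Slope on the mt- share (log2 FPKM per 10 percentage points, x) against the diet log2 fold change (HSD minus CON, y) for each tested gene, with 6 lists in colour. Both values come from the same 6 libraries, and the mean mt- share was lower in HSD than in CON. Ribosomal protein and fatty acid oxidation genes lie in the upper left with falling slopes, while urea cycle genes lie above the cloud's middle.

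Several whole lists had called slopes in most members. Of 22 genes of fatty acid oxidation and ketogenesis, 20 were higher in HSD with a median of 0.69, but 1 separated the groups (4.55%), the slope was called for 15, and beside the share the median was −0.07 with 9 of 22 positive. Cytosolic ribosomal proteins were higher for 74 of 77 genes with a median of 0.57. None of them separated the groups, 71 had a called falling slope, and beside the share the median was −0.17. Nuclear genes of oxidative phosphorylation had 76 of 86 higher, 71 falling slopes, and a median that went from 0.35 to −0.44. Mitochondrial ribosomal proteins gave 67 of 77 higher with 59 falling slopes and a median from 0.34 to −0.19, and the constitutive proteasome gave 34 of 34 higher with 28 falling slopes and a median from 0.49 to −0.24. The 13 mt- genes were lower in HSD in all cases, with a median of −0.60, but none separated the groups. *mt-Co1* had 171236, 69020 and 114078 FPKM in CON and 38012, 39924 and 121635 in HSD.

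Lists of secreted proteins had shares of separated genes near the 12.1% of all genes, with 3 of 20 acute phase proteins, 2 of 18 complement and coagulation genes (11.1%) and 2 of 19 hepatokines (10.5%). Acute phase proteins had 19 of 20 higher with a median of 0.85, or 0.31 beside the share, and 3 separated genes. *Lbp*, which carries bacterial lipopolysaccharide, had 4.42, 6.62 and 6.52 FPKM in CON and 15, 11.8 and 11.6 in HSD without a called slope, and *Serpina3n*, a protease inhibitor, had 13.5, 35.7 and 29.6 against 63.1, 50 and 36.5 with a called slope. Complement and coagulation had 16 of 18 higher, a median of 0.55, or 0.18 beside the share, and 2 separated genes, *F5* and *C3*. *C3*, the central complement protein, had 217, 299 and 289 FPKM against 705, 570 and 306. Both had called slopes, and *C3* was not separated with mt- genes left out. Hepatokines had 17 of 19 higher and medians of 0.80 and 0.20. *Inhbe*, an activin chain, had 7.12, 7.29 and 9.43 FPKM against 13.9, 15.4 and 13.6, and *Enho*, which encodes adropin, had 3.62, 11.5 and 6.89 against 18.1, 24.7 and 12.6. *Enho* had a called slope, and *Inhbe* was not separated with mt- genes left out. Xenobiotic cytochrome P450 genes had 18 of 19 higher with medians of 0.65 and 0.09. *Cyp3a13* was the separated member, with 9.45, 14.4 and 11.8 FPKM in CON and 35.2, 29.4 and 27.3 in HSD. The unfolded protein response had 20 of 22 higher with medians of 0.70 and 0.07 and 14 called slopes, and hepatocyte markers had 9 of 11 higher with medians of 0.68 and −0.01. *Hnf4a*, the transcription factor that maintains hepatocyte identity, had 76.9, 62.5 and 70.9 FPKM in CON and 124, 132 and 115 in HSD. Its slope was not called, but its groups overlapped with mt- genes left out, where the log2 fold change went from 0.82 to 0.44.

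**Figure D5:**
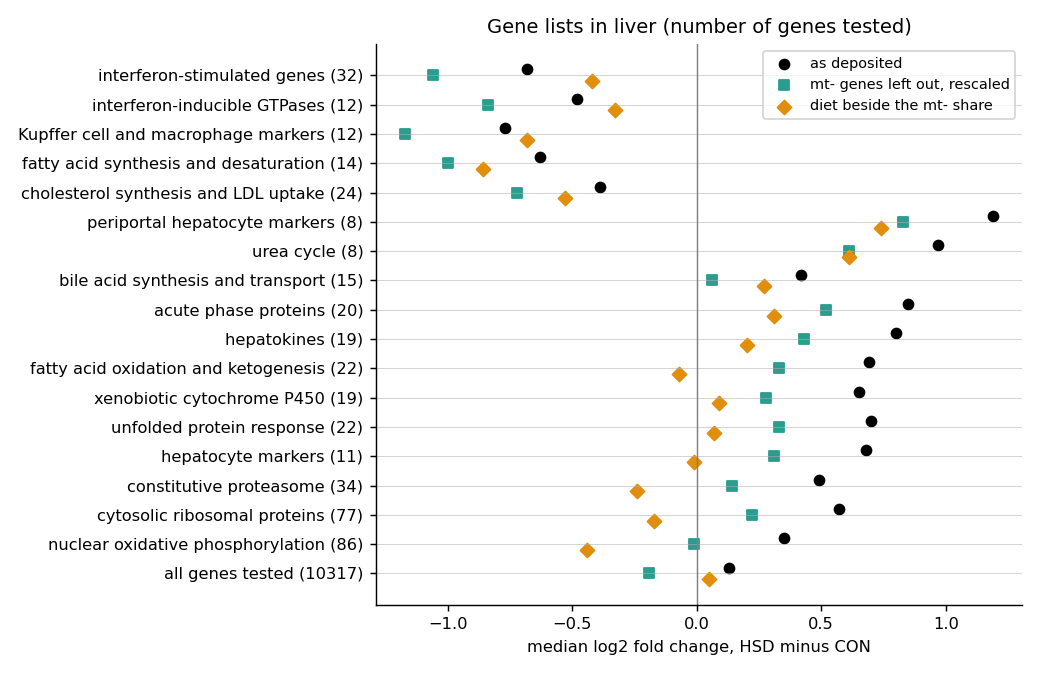
Median log2 fold change (HSD minus CON) of 17 gene lists and of all tested genes, with the number of genes tested in brackets. Black circles are FPKM as deposited, green squares are FPKM with mt- genes left out, and orange diamonds are diet coefficients beside the mt- share. The 5 lists at the top stay below 0 in all 3, periportal and urea cycle lists stay above 0.6, and ribosomal and oxidative phosphorylation lists change sign beside the share.

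Of 8 osmolyte and NFAT5 genes, 4 were higher and the median was −0.02. *Slc38a2*, an amino acid transporter, was the separated member, with 22.2, 23.8 and 22.2 FPKM in CON and 28.3, 24.6 and 33.7 in HSD, and *Nfat5* itself had 2.35, 1.76 and 1.68 against 1.56, 1.44 and 1.92. Of 9 renin-angiotensin and mineralocorticoid genes, 5 passed the filter and 3 separated the groups. Of these, 2 were higher and 1 lower, where all genes gave 8.62% and 3.47%. *Agt*, angiotensinogen, had 94.6, 329 and 304 FPKM in CON and 811, 664 and 403 in HSD, a log2 fold change of 1.50 (SE 0.61) with a called falling slope and a coefficient of 0.81 beside the share. *Agtr1a*, the angiotensin receptor, had 10, 11.3 and 12.1 FPKM against 13.2, 18.5 and 12.4, and *Nr3c2*, the mineralocorticoid receptor, had 1.34, 0.983 and 1.11 against 0.771, 0.833 and 0.488. *Agtr1a* was not separated with mt- genes left out, and the muscle share would account for 17.8% of *Nr3c2* in CON16L. Glucocorticoid targets had 5 of 7 higher and 0 separated genes, and NRF2 targets had 9 of 15 higher with 1 separated gene, *Gclc* (61.5, 85.8 and 111 against 139, 122 and 124 FPKM). Clock genes had 13 of 16 higher with 2 separated, *Cry1* (1.22, 1.98 and 1.83 against 4.65, 6.66 and 2.52 FPKM) and *Rora* (2.03, 2.93 and 1.82 against 3.79, 3.8 and 3.17 FPKM). Immediate early genes had 10 of 13 higher with 1 separated, *Ier2* (22.7, 26.9 and 21.2 against 57, 34.2 and 57 FPKM). The separated shares were 12.5% for osmolyte and for clock genes, 6.67% for NRF2 targets and 7.69% for immediate early genes, against 12.1% over all genes. The muscle share would account for 22.3% of *Cry1* and 31.0% of *Rora* in CON16L, and *Cry1* had a called slope. *Gclc*, *Rora*, *Ier2* and *Slc38a2* were not separated with mt- genes left out. The hour of tissue collection is not given in the sources used here.

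The muscle RNA of CON16L was followed through the genes. All but 1 of the 34 muscle markers were highest in CON16L, where 33 reached 0.5 FPKM, against 5 to 9 in the other liver libraries. *Acta1*, skeletal muscle actin, had 1994 FPKM in CON16L and between 0.5 and 1.37 in the other 5, and *Tnnt3*, *Tnni2*, *Tcap* and *Mb*, contractile and oxygen-storage proteins of muscle, had 953, 449, 409 and 400 FPKM there. The 33 tested markers were all lower in HSD with a median of −2.28. Without CON16L most of them fell under the FPKM filter. Those left, 1 higher and 6 lower, had a median of −0.30. For 4789 tested genes (46.4%) the muscle share would, by the same rough estimate, account for over 10% of the FPKM in CON16L. With these genes left out, 790 of 5528 genes (14.3%) still separated the groups. Adipocyte markers were also highest there in sum, at 35 FPKM against 5.66 to 6.27 in the other libraries, and *Cfd*, the adipocyte protease adipsin, had 16 FPKM in CON16L. Of 8 pancreatic acinar markers, *Cela2a* alone passed the filter, with 0, 0.2 and 0 FPKM in CON and 1.62, 1.29 and 0.272 in HSD, and no fold is given at this level.

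The diet effect in liver was set against that in skeletal muscle and white adipose tissue (WAT), with 6 libraries each, by the interaction in limma. Mice CON16, CON72, HS2 and HS5 gave libraries of all 3 tissues, and this fit took the libraries as independent. With mouse as a random block, the calls were 4 against muscle and 74 against WAT. The difference from muscle was called for 4 of 9104 genes (0.0439%) and from WAT for 70 of 9864 (0.71%), with 841 (9.24%) and 1302 (13.2%) at an unadjusted p under 0.05. *Acacb* was called in both. Its mean in muscle was 32.8 ± 6.33 FPKM in CON and 34 ± 12.7 in HSD (SD, n = 3), and in WAT 17.4 ± 2.38 and 24.9 ± 10.3, so the lower level in HSD was a liver difference of −2.71 against muscle (SE 0.45 and, by limma, adjusted p = 0.0421) and −3.12 against WAT (SE 0.45 and, by limma, adjusted p = 0.00367). *Parp16*, an ADP-ribosyltransferase of the endoplasmic reticulum that falls outside the naming rule and was chosen after its values were seen, was also called in both. It had 4.76 ± 0.362 FPKM in CON and 14.6 ± 1.06 in HSD liver (SD, n = 3), against 1.79 ± 0.128 and 1.33 ± 0.249 in muscle and 8.95 ± 0.567 and 8.93 ± 0.308 in WAT. Of the 70 calls against WAT, 64 had the more positive effect in liver. Hepatocyte genes among them had traces in CON WAT that were lower in HSD WAT, such as *Mat1a* with 1.65 ± 0.671 and 0.126 ± 0.0153 FPKM (SD, n = 3), so their difference mixes both tissues. *Lbp*, in contrast, had 35.4 ± 4.59 FPKM in CON WAT and 15.4 ± 3.89 in HSD WAT (SD, n = 3), the reverse of its order in liver, with a difference of 2.28 (SE 0.31 and, by limma, adjusted p = 0.00238).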

How the data were processed

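RNA-seq was done on liver, skeletal muscle and white adipose tissue of HSD and CON mice. Total RNA was depleted of ribosomal RNA and sequenced in stranded, paired-end libraries. The authors deposited FPKM per gene. The study names hisat2 on mm10 and cuffdiff with Ensembl gene models, whose release is not given in the sources used here. The submitters' processing notes also name HTSeq 0.9.1 and mm9. Which of these tools made the deposited FPKM was not tested. FPKM in a library depend on all other transcripts, so the mt- share was tracked. Fragments were recovered by scaling FPKM with exon lengths of GENCODE M21. Of 18822 genes above 0, 18359 gave whole numbers within 0.05 at that length and 463 at another. Each library is 1 mouse, and some mice gave libraries of more than 1 tissue.

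Genes were tested with limma 3.58.1 in R 4.3.3 (moderated test with a trend, two-sided) on log2(FPKM + 0.5), a scale that understates differences of low genes, with diet as the only term and p-values adjusted over all tested genes by the Benjamini-Hochberg method. The same model was fitted with the mt- share alone, with diet beside that share, and with the tissue by diet interaction for genes tested in both tissues. A single gene compared by an exact permutation test cannot go below p = 0.1 with 3 against 3. Scripts were tested on simulated data. The study's own liver comparison used 4 of these libraries, without CON16L and HS5L, and that choice was an alternative here. Named genes were the study's liver genes and the 10 largest differences each way. Those 10 came from genes at an unadjusted p under 0.05 in limma with 1 FPKM or more in the higher group. Their groups were apart in the same direction in both scalings (muscle markers left out). Also named were the 5 steepest mt- slopes each way, the top 3 of each list, and the 5 muscle markers highest in CON16L. The comparison, the lists and the named genes were chosen with earlier results of these data known. Medians of lists under other settings were added after seeing the data. A few genes within the rule or the lists are not reported here.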

Additional observations from a re-analysis of the deposited data

Results flagged for a closer look

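The diet effect differed between tissues by the limma interaction for 4 genes against muscle and 70 against WAT. *Acacb* differed by −2.71 from muscle and −3.12 from WAT on the log2 scale. *Parp16* differed by 1.85 and 1.52, its HSD level being above CON in liver (14.6 ± 1.06 against 4.76 ± 0.362 FPKM, SD, n = 3). Against WAT, *Lbp* differed by 2.28, *Sdsl* by 2.59, *Serpina3n* by 2.51 and *Nnmt* by 2.67, and for each of these 4 genes the mean in HSD was above CON in liver and below CON in WAT. *Mat1a* differed by 3.37 and *Slco1b2* by 2.43, while their WAT levels were low, with 0.975 ± 0.432 FPKM (SD, n = 3) for *Slco1b2* in CON WAT and 0.0613 ± 0.0527 in HSD WAT. The part of these traces in the differences was not tested.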

How the results depend on the processing

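The count of 0 DEGs became 35 with the study's 4 libraries (20 higher, 15 lower), 926 with array weights and 56 when all 18 libraries shared 1 fit. Leaving out 1 library at a time gave 0 to 1, the 1 being without CON16L. The count of genes with groups apart (1247) was 6438 with the study's 4 libraries, where fewer samples make separation easier, and 790 with genes holding muscle RNA left out, where fewer genes were tested. It ranged from 1508 without HS2L to 4395 without HS5L, with 2576 without CON16L, 2082 without CON14L and 1948 without HS4L. With mt- genes left out it was 1081, of which 341 were higher and 740 lower. The count of genes with an mt- share slope (3298) ranged from 1141 without CON14L to 3574 without CON16L, with 1919 without HS4L, and was 4617 with mt- genes left out. The count of 0 DEGs beside the mt- share became 1 with a pseudocount of 1, 3 when genes had to average 1 FPKM, 3 with median-ratio scaling, 2 with quantile normalization and 2 with mt- genes left out, and 0 to 1 leaving out 1 library (1 without CON14L or CON16L). The muscle interaction count (4) became 2 with median-ratio scaling and 0 with mt- genes left out (523 at an unadjusted p under 0.05 in limma), and 1 to 60 leaving out 1 library, with 1 without CON72L or HS2L, 19 without CON16L and 60 without HS5L. The WAT count (70) became 22 and 44 under the same settings, and 25 to 644 leaving out 1 library, with 44 without CON14L, 214 without CON16L, 25 without HS2L, 34 without HS4L and 644 without HS5L. Except as said for fewer samples or genes, the cause was not tested.

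Of 1979 values of the 101 named genes under alternatives, 9 had the other sign. *Nr1h3* was −0.06 with quantile normalization and −0.02 with mt- genes left out, *Slc38a2* −0.05 and −0.04 under those settings, and *Tbx3* −0.15 with mt- genes left out. *Cfd* was 0.34 with the study's 4 libraries. *Tcap* was 0.41 and *Tnni2* 0.32 with array weights. Leaving out 1 library at a time, *Manf* ranged from −0.04 without CON14L to 1.32 without HS5L, and with the study's 4 libraries it was 1.75.

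Replicate numbers were treated as labels only. Same-numbered libraries had correlations of deviations of −0.47, 0.40 and −0.21, and other pairs lay between −0.52 and 0.62. These values do not show a pairing by number, but with 3 libraries per group they cannot exclude one. With the replicate block the count of DEGs was 0 (462 at an unadjusted p under 0.05 in limma), and the interaction counts were 4 against muscle and 76 against WAT.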
